A study of Mus musculus with 6 samples.

Results

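Described here are 10 mouse genes that control the passage of a cell from G1 into S phase. They are the D-type cyclin genes Ccnd1, Ccnd2 and Ccnd3, the E-type cyclin genes Ccne1 and Ccne2 and the kinase genes Cdk2, Cdk4 and Cdk6. The retinoblastoma gene Rb1 and the transcription factor gene E2f1 complete them. They were taken by symbol from 28418 genes measured by poly(A) RNA sequencing, and all 10 were found and passed the filter on low values, a mean of at least 1 FPKM (fragments relative to the length of the transcript and the mapped fragments of the library) over the libraries. The cells were 4T1, an established mouse mammary carcinoma line of the triple-negative kind. Of 6 libraries, 3 came from cells cultured at 0 nM and 3 from cells cultured at 100 nM PFOS (perfluorooctane sulfonate, a persistent fluorinated surfactant), both for 35 passages. The labels name no other agent or genetic change for either group. They do not say whether the 3 libraries of a group were grown apart, and the p-values therefore cover the spread among these libraries alone, which could be technical.

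In G1, D-type cyclins bind Cdk4 or Cdk6 and these kinases phosphorylate the retinoblastoma protein, which then releases E2F transcription factors. E2F turns on genes for DNA replication and for cyclin E, and cyclin E with Cdk2 completes the phosphorylation of the retinoblastoma protein. Inhibitors of the Ink4 family bind Cdk4 and Cdk6, and those of the Cip/Kip family act on Cdk2 complexes. Ccnd1 is induced by mitogen signalling and is often overexpressed in breast cancer.

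The labelled mammary carcinoma cells were compared with 9 epithelial markers. Epcam stood at 25.10 to 35.09 FPKM and the keratin gene Krt8 at 288.74 to 310.04 FPKM over the 6 libraries. Krt14 (0.65 to 1.55 FPKM) and Cldn7 (0.74 to 2.02 FPKM) were low. The 9 epithelial markers summed to 731.45 to 732.87 FPKM at 0 nM and 764.38 to 822.42 FPKM at 100 nM. Krt8 and Krt18 made up most of each sum. Of the 9, 7 had a higher mean at 100 nM, and Cdh1, Krt7 and Krt19 passed the test given below. The other 2, Cldn4 and Cldn7, had a lower mean. The 10 T and NK cell markers summed to 1.25 to 1.59 FPKM in 5 libraries, where Cd3e and Cd3g were listed at 0, and to 26.5 FPKM in replicate 3 at 100 nM, where 0 of 10 were listed at 0. The 8 myeloid markers, none listed at 0, summed to 166.28 to 202.55 FPKM at 0 nM and to 155.77, 302.83 and 329.94 FPKM in replicates 1, 2 and 3 at 100 nM. Lyz2 alone (103.24 to 240.43 FPKM) made up most of each sum. The markers did not all move together: in replicate 2 at 100 nM, Lyz2 was at its highest and Cd14 at its lowest (8.41 FPKM). The 9 fibroblast and endothelial markers summed to 5.4 to 8.76 FPKM. Replicate 3 at 100 nM also stood apart on the first principal component, with a score of 19.4 against -9.57 to 0.06 for the others. The part of these other cell types in the G1 values was not tested. Tests of the 10 genes and of the related pathway genes, counts of calls and ratios were repeated without that library. Where this changed the call of one of these genes, the value without it is given. Calls of marker genes and of neighbours were read from all 6 libraries only. So were neighbour counts, shares of genes without overlap, list medians and correlations.

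Of the 10 genes, 1 passed the test for a difference between 100 nM and 0 nM, and that was Ccne1, which fell. The test was limma on log2(FPKM + 1) with Benjamini-Hochberg adjustment over 11741 genes at an adjusted p under 0.05, and 4.15% of all tested genes passed it, 1.69% higher and 2.46% lower. A mean below that at 0 nM was found for 9 of the 10, against 47.4% of all tested genes, with a median difference of -0.05 against 0.01. The values of both groups did not overlap for 6 of the 10, where the share among all tested genes was 26.9%. These were Ccnd1, Ccne1, Cdk4, Cdk6 and Rb1, lower at 100 nM (5 of 10, against 13.3% of all), and Ccnd2, higher at 100 nM (1 of 10, against 13.7% of all). An unadjusted p under 0.05 was found for 4 of 10 (Ccnd1, Ccne1, Cdk6 and Rb1), against 20.7% of all. That count was 1 (Ccne1) without replicate 2 at 0 nM, 2 (Ccne1 and Cdk6) without replicate 2 at 100 nM, and 3 or 4 without any other library. Of the 6 that did not overlap, all but Ccne1 missed the adjusted threshold.

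**Figure D1:**
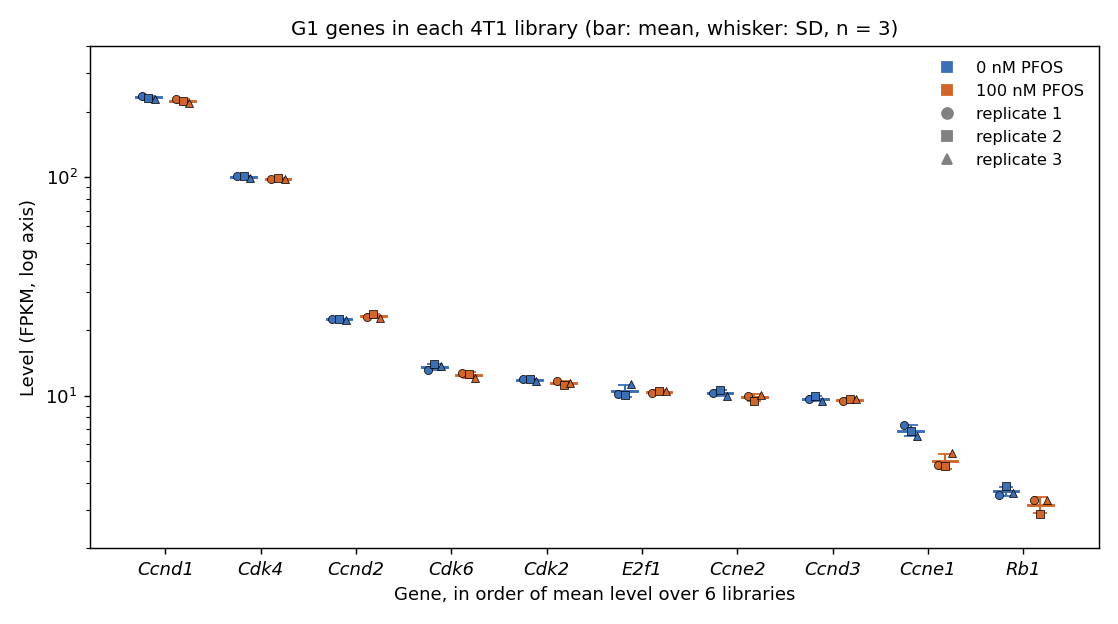
Level of each of the 10 genes in FPKM (vertical log axis) in each library, with genes in order of mean level; blue marks 0 nM and orange 100 nM PFOS, marker shape gives the replicate, bars are means and whiskers SD (n = 3). Ccnd1 lies at 218.43 to 235.40 FPKM and Rb1 at 2.86 to 3.84 FPKM, and the groups are most clearly apart for Ccne1.

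On the FPKM scale, which is per transcript length, the 10 genes spanned levels from 3.41 FPKM for Rb1 to 228 FPKM for Ccnd1 as means over 6 libraries. Ccnd1 was above 98.5% of the 11741 tested genes and Cdk4, at 99.7 FPKM, above 96.4%. Ccnd2 (22.7 FPKM) and Cdk6 (12.98 FPKM) came next, and the range of each was apart from those of its neighbours in the order. Cdk2 (11.6 FPKM) and E2f1 (10.5 FPKM) overlapped in range, as did E2f1 with Ccne2 (10.07 FPKM) and Ccne2 with Ccnd3 (9.63 FPKM), so these neighbours in the order are not separated. Every Cdk2 value lay above every value of Ccne2 and Ccnd3, and every E2f1 value above every value of Ccnd3. Ccne1, at 5.97 FPKM, lay apart from Ccnd3 above it and from Rb1 below it.

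Cyclin E1, the product of Ccne1, is a partner through which Cdk2 acts at the end of G1. Ccne1 (ENSMUSG00000002068, GRCm38 chromosome 7, 38097984 to 38107534, minus strand) was measured at 7.34, 6.91 and 6.52 FPKM in replicates 1 to 3 at 0 nM. At 100 nM it was measured at 4.81, 4.74 and 5.47 FPKM. Every 100 nM value was below every 0 nM value, with 5.47 FPKM as the highest of the treated and 6.52 FPKM as the lowest of the untreated libraries. Means were 6.92 ± 0.41 FPKM (SD, n = 3) and 5.01 ± 0.40 FPKM (SD, n = 3), so the mean fell by 27.7%. In such bulk RNA, fewer cells with the transcript and less of it per cell cannot be told apart. As a log2(FPKM + 1) difference this was -0.40 ± 0.06 (SE; 95% interval -0.55 to -0.25), and the limma adjusted p was 0.024. Of the bases of its transcripts, read as words of 31 bases, 0.0753% also occur in transcripts of other genes, and no annotated gene overlaps it on either strand.

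The adjusted p of Ccne1 was 0.0196 without replicate 3 at 100 nM, the library with T and NK cell transcripts. It was over the threshold without replicate 1, 2 or 3 at 0 nM (0.083, 0.0924 and 0.0582) and without replicate 1 or 2 at 100 nM (0.0815 and 0.0897), while the difference stayed between -0.46 and -0.36. With no filter on low values it was 0.071. The count of changed genes over all tested also moved, from 487 to between 122 and 290 when any 1 of the 6 libraries was left out.

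The tested genes around Ccne1 did not pass. Within 2.5 Mb on each side, 2 of 8 tested protein-coding genes had a lower mean at 100 nM, and the median difference was 0.01, and 0 of 8 passed. The nearest on one side, Uri1, which encodes a prefoldin-like protein, had a mean that went from 14.97 to 13.9 FPKM (adjusted p = 0.241 by limma). The nearest on the other side, 1600014C10Rik, stood at 1.75 and 1.78 FPKM (adjusted p = 0.937 by limma). Beyond it, Plekhf1 stood at 2.24 and 2.50 FPKM (adjusted p = 0.463 by limma). Pop4, which encodes a subunit of RNase P, stood at 3.98 and 4.00 FPKM (adjusted p = 0.964 by limma). The remaining neighbours, Ankrd27, Pdcd5, Dpy19l3 and Zfp507, lay near the far edge of the window, on the side of Uri1.

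**Figure D2:**
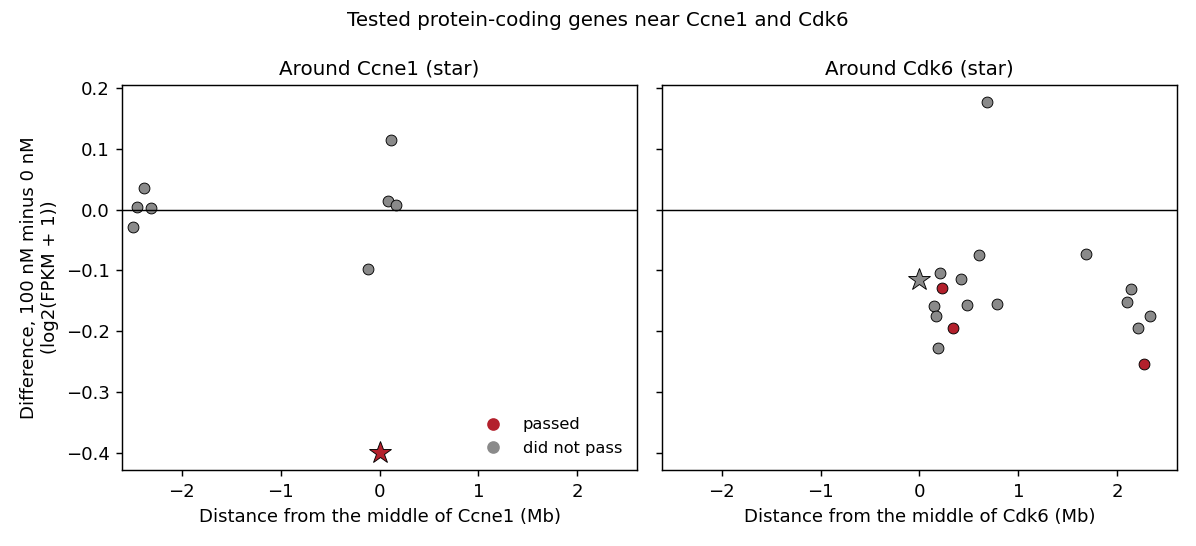
Difference between 100 nM and 0 nM on the log2(FPKM + 1) scale (vertical axis) of tested protein-coding genes within 2.5 Mb of Ccne1 (left) and Cdk6 (right), by distance in Mb; stars are Ccne1 and Cdk6, and red marks genes past the limma threshold. Ccne1, at -0.40, lies below all 8 neighbours. The 17 neighbours of Cdk6 (-0.12) all lie to its right, and 16 of them are below 0.

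The paralogue Ccne2 (ENSMUSG00000028212, chromosome 4, 11191351 to 11204779), which encodes cyclin E2, did not pass. It was measured at 10.29, 10.66 and 9.97 FPKM at 0 nM and at 9.96, 9.45 and 10.09 FPKM at 100 nM, and the groups overlapped. The log2(FPKM + 1) difference was -0.06 with a 95% interval of -0.15 to 0.03 (limma adjusted p = 0.415). Leaving out replicate 2 at 0 nM gave -0.0393 for Ccne2, and leaving out replicate 2 at 100 nM gave -0.036. Within each library, the ratio of Ccne1 to Ccne2 was 0.713, 0.648 and 0.654 at 0 nM and 0.483, 0.502 and 0.542 at 100 nM. The groups did not overlap in this ratio, and its mean log2 value was lower by 0.40 at 100 nM (-0.58 ± 0.08 against -0.98 ± 0.09, SD, n = 3 each). Cyclin E1 transcripts were thus the lesser of the pair in all 6 libraries, and more so at 100 nM.

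That ratio was 1 of 5 tested, with an exact two-sided permutation test in which 3 libraries against 3 cannot go below p = 0.1. The Ccne1 to Ccne2 ratio, the Ccnd1 to Ccnd2 ratio and the Cdk4 to Cdk6 ratio each reached that smallest value (exact p = 0.1, 0.167 adjusted over the 5). The Ccnd1 to Ccnd2 ratio was 10.5, 10.4 and 10.3 at 0 nM and 9.90, 9.53 and 9.62 at 100 nM. The Cdk4 to Cdk6 ratio was 7.73, 7.29 and 7.33 at 0 nM and 7.77, 7.83 and 8.22 at 100 nM. Groups overlapped for Ccnd1 to Ccnd3 (exact p = 0.2, 0.25 adjusted) and for Cdk4 to Cdk2 (exact p = 0.7, 0.7 adjusted).

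Cdk2 encodes the kinase that binds cyclins E and A. Cdk2 (ENSMUSG00000025358, chromosome 10, 128697939 to 128705030) was measured at 11.93, 11.89 and 11.63 FPKM at 0 nM and at 11.73, 11.22 and 11.44 FPKM at 100 nM. The groups overlapped, and the 95% interval of the difference ran from -0.11 to 0.03 (limma adjusted p = 0.483). The Cdk2 difference was -0.04, and -0.0263 without replicate 2 at 100 nM. Its 6 values lay within 11.22 to 11.93 FPKM.

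Cyclin E genes are textbook targets of E2F. The letters of a common form of the core of such a site, TCCCGC on either strand, were therefore searched. The search covered the RefSeq windows of the 10 genes (GRCm38.p6, from 250 bases before the start to 50 after). Other forms of the site were not searched. Windows were found for 6 of the 10 genes (Ccnd3, Ccne1, Cdk2, Cdk4, Cdk6 and E2f1), and that of E2f1 begins inside an annotated exon. The Ccne1 window held 2 matches, at -47 to -42 and at -7 to -2 from the start, the Cdk2 window 3 and the Cdk6 window 2, while the Ccnd3, Cdk4 and E2f1 windows held 0. The GENCODE M21 exons of Ccne1 begin further out than the RefSeq start, so 3 of the 6 bases of its first match and all 6 of its second lie in an annotated exon. For Cdk6, 5 bases of the match at -1 to 4 lie in an exon and none of the match at -11 to -6. Of 32851 windows in the table, 6562 held at least 1 match and 371 (1.13%) at least 3. Shown are both Ccne1 sites with 12 bases on each side (chr7:38107520-38107549 and chr7:38107480-38107509, minus strand) and the bases before the Cdk2 start (chr10:128705052-128705301, minus strand), with matches in capitals.
Ccne1 site 1: cggggcgcgaggGCGGGAcggggccggtgc
Ccne1 site 2: gatttttaaatgTCCCGCtcgaagccgggc
Cdk2 upstream: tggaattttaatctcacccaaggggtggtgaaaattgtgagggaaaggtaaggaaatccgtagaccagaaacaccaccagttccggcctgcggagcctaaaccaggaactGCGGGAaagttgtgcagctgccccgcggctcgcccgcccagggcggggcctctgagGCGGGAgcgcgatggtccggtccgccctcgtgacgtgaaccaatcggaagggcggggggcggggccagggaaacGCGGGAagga
A match is a string of letters in this window, not a measured site.

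**Figure D3:**
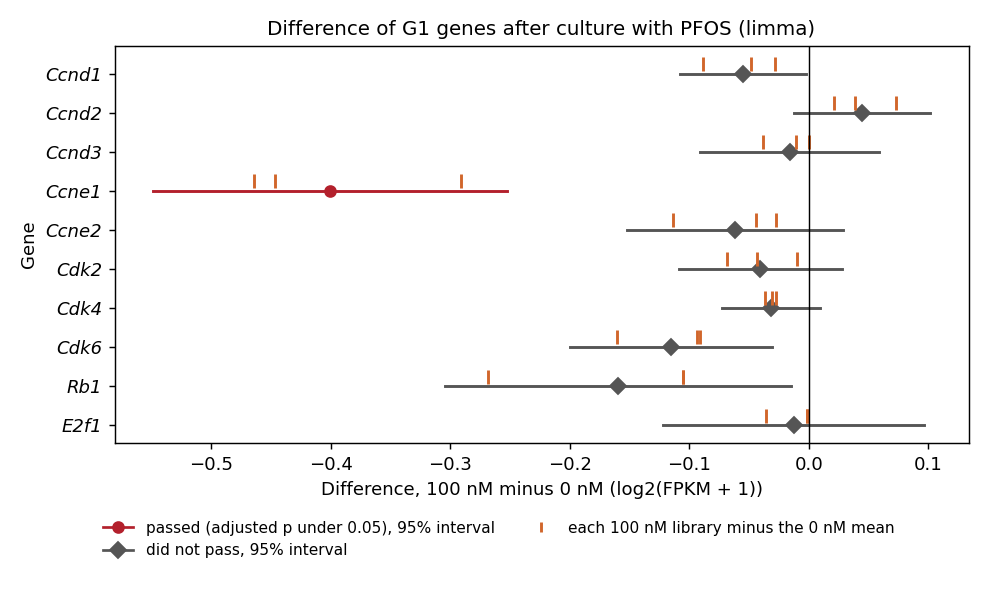
Difference between 100 nM and 0 nM on the log2(FPKM + 1) scale (horizontal axis) for each of the 10 genes, with the 95% interval from limma as a line; ticks above each line are the 3 libraries at 100 nM minus the mean at 0 nM. Ccne1 (red, -0.40) passed the threshold, and the intervals of Ccnd1, Cdk6 and Rb1 end below 0 before adjustment.

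Among the D-type cyclins, Ccnd1 was by far the most abundant. Ccnd1 (ENSMUSG00000070348, chromosome 7, 144929931 to 144939925) was measured at 235.40, 232.06 and 229.38 FPKM at 0 nM and at 227.69, 224.61 and 218.43 FPKM at 100 nM. The groups did not overlap, but 227.69 and 229.38 FPKM, their nearest values, lay close together. The log2(FPKM + 1) difference of -0.05 ± 0.02 (SE; 95% interval -0.11 to -0.0026) did not pass (unadjusted p = 0.0422, limma adjusted p = 0.221). Without replicate 3 at 100 nM, the Ccnd1 difference was -0.0384 (unadjusted p by limma = 0.0993).

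Ccnd2 (ENSMUSG00000000184, chromosome 6, 127125162 to 127152193), which encodes cyclin D2, was the exception in direction. It was measured at 22.39, 22.42 and 22.29 FPKM at 0 nM and at 23.00, 23.58 and 22.71 FPKM at 100 nM, with no overlap. The difference of 0.04 (95% interval -0.01 to 0.10) did not pass (limma adjusted p = 0.35). Within 2.5 Mb of Ccnd2, 31 of 41 tested protein-coding genes also had a higher mean, with a median difference of 0.06. Of these 41, 3 were called higher and 1 lower. The part of this stretch of chromosome 6 in the Ccnd2 value was not tested. Ccnd3 (ENSMUSG00000034165, chromosome 17, 47505051 to 47599689), which encodes cyclin D3, was measured at 9.63, 9.99 and 9.45 FPKM and at 9.41, 9.69 and 9.61 FPKM. Its groups overlapped, with a 95% interval of -0.09 to 0.06 (limma adjusted p = 0.819), and the sign of the difference turned, to 0.0041, without replicate 2 at 0 nM.

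The kinases that D-type cyclins activate differed widely in level. Cdk4 (ENSMUSG00000006728, chromosome 10, 127063534 to 127067920) was measured at 101.01, 101.54 and 99.82 FPKM at 0 nM and at 98.24, 98.85 and 98.66 FPKM at 100 nM. The values did not overlap, but the mean at 100 nM was still 0.978 of that at 0 nM, with a 95% interval of -0.07 to 0.01 on the log2(FPKM + 1) scale (limma adjusted p = 0.357). Cdk4 is known as a target of the transcription factor Myc, and Myc itself stood at 122 ± 2.6 FPKM (SD, n = 3) and 123 ± 2.6 FPKM.

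The sequence before the Cdk4 start holds the E-box letters CACGTG, a palindrome that Myc and Max bind, at 4 places (-172 to -167, -118 to -113, -98 to -93 and -11 to -6), and it is shown for that reason, with the matches in capitals (chr10:127063285-127063533, plus strand). Of the 32851 windows, 7.15% held the 6 letters at least once and 8 windows (0.0244%) at least 4 times. The Cdk6 window held them 1 time and those of Ccne1, Cdk2, E2f1 and Ccnd3 held none. The E2f1 and Ccnd3 windows thus held neither CACGTG nor TCCCGC.
Cdk4 upstream: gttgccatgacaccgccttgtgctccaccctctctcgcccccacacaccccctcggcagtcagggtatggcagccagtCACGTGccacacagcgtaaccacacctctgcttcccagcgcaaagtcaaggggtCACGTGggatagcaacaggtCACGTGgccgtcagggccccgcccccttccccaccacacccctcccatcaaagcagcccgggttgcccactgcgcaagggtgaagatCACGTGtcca
The dense motifs are a property of the window, and binding was not measured here.

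Cdk6 (ENSMUSG00000040274, chromosome 5, 3341485 to 3473180) encodes the other kinase that cyclin D activates. It was measured at 13.07, 13.93 and 13.61 FPKM at 0 nM and at 12.64, 12.62 and 12 FPKM at 100 nM. The groups did not overlap, and the mean at 100 nM was 0.918 of that at 0 nM. The difference of -0.12 ± 0.04 (SE) on the log2(FPKM + 1) scale did not pass (unadjusted p = 0.0147, limma adjusted p = 0.13).

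The genes next to Cdk6 had lower means too. Within 2.5 Mb of Cdk6, 16 of 17 tested protein-coding genes were lower at 100 nM. All 17 lie on the same side of Cdk6, at higher coordinates. The median difference was -0.15, with 12 of the 17 more negative than Cdk6 and 5 less. Gatad1, Ankib1 and Steap2 passed the test with differences of -0.13, -0.19 and -0.25 on the log2(FPKM + 1) scale. The 1 gene with a higher mean was Cyp51, an enzyme of cholesterol synthesis, at 0.18. The part of this stretch of chromosome 5 in the Cdk6 value was not tested. Among the other members' windows, a lower mean was found in 8 of 22 tested genes around Ccnd1, 10 of 41 around Ccnd2, 5 of 12 around Rb1 and 34 of 62 around E2f1. Cdk2 and Cdk4 lie close together on chromosome 10 and share their neighbours, of which 24 of 67 had a lower mean.

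Rb1 encodes the pocket protein that the G1 kinases phosphorylate. Rb1 (ENSMUSG00000022105, chromosome 14, 73183673 to 73325822) was measured at 3.52, 3.84 and 3.59 FPKM at 0 nM and at 3.32, 2.86 and 3.32 FPKM at 100 nM, the lowest level of the 10 genes. The groups did not overlap, and the mean at 100 nM was 0.868 of that at 0 nM. Its difference of -0.16 ± 0.06 (SE) did not pass (unadjusted p = 0.035, limma adjusted p = 0.203). Without replicate 2 at 100 nM, the library with the lowest Rb1 value, that difference was -0.106. Rcbtb2 and Lpar6 overlap Rb1 on the other strand, and whether the authors' quantification used strand is not given in the sources used here. A gene on the other strand also overlaps every other member apart from Ccne1 and E2f1.

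E2f1 (ENSMUSG00000027490, chromosome 2, 154559407 to 154569892) encodes an activating E2F that the retinoblastoma protein holds back. It was measured at 10.23, 10.10 and 11.33 FPKM at 0 nM and at 10.26, 10.53 and 10.53 FPKM at 100 nM. The groups overlapped, with a 95% interval of -0.12 to 0.10 on the log2(FPKM + 1) scale (limma adjusted p = 0.908). The E2f1 difference took the other sign, 0.035, without replicate 3 at 0 nM, the library with its highest value.

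The other genes of the pathway were read from 9 lists holding 106 genes, of which 102 were tested. Of these 102, 6 passed (5.88%, against 4.15% of all tested genes), 1 higher and 5 lower at 100 nM. Of the 6, 4 lie on chromosome 16, where their neighbours also had lower means.

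The 1 that rose was Cdkn1b, which encodes p27, the inhibitor that binds cyclin E with Cdk2. Cdkn1b was measured at 18.67, 19.49 and 19.35 FPKM at 0 nM and at 22.74, 21.88 and 21.63 FPKM at 100 nM. The groups did not overlap, and the mean rose by 15.2%. As a log2(FPKM + 1) difference this was 0.19 ± 0.03 (SE), and the limma adjusted p was 0.024. Around it on chromosome 6, 5 of 16 tested neighbours had a lower mean and 0 of 16 passed.

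The call for Cdkn1b held without replicate 3 at 100 nM (limma adjusted p = 0.0417). It was lost without each of the other 5 libraries, at 0.0836, 0.0771 and 0.0785 without replicates 1, 2 and 3 at 0 nM and at 0.0701 and 0.0831 without replicates 1 and 2 at 100 nM. The calls for Ccne1 and Cdkn1b were thus lost without any of the same 5 libraries.

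Among the other inhibitors of this list of 7, Cdkn1a, which encodes p21, stood at 16.9 and 17.0 FPKM (limma adjusted p = 0.991). Cdkn2c stood at 36.1 and 34.8 FPKM and Cdkn2d at 14.6 and 13.9 FPKM, and neither passed. Cdkn2a (0.04 to 0.38 FPKM), Cdkn2b (0.12 to 0.76 FPKM) and Cdkn1c (0 to 0.12 FPKM) were under the filter. Of the Ink4 genes, those for p16 and p15 were thus near 0 in all 6 libraries.

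**Figure D4:**
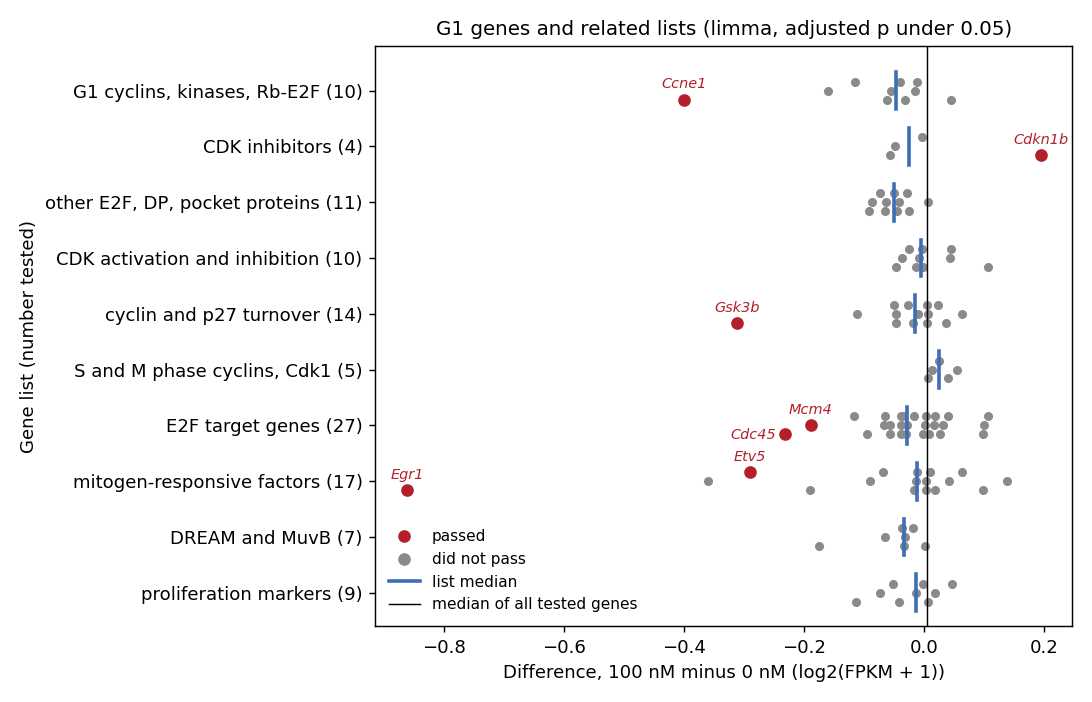
Difference between 100 nM and 0 nM on the log2(FPKM + 1) scale (horizontal axis) of each tested gene of the 10 members and of 9 related lists, 1 row per list; grey points did not pass, red points passed and are named, and the bar is the list's median. Cdkn1b (0.19) is the only gene past the threshold to the right of 0, and the medians lie between -0.05 and 0.03.

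Of 14 genes for the turnover of cyclins D and E and of p27, 1 fell and 0 rose. Among all tested genes, 2.46% fell and 1.69% rose. Gsk3b, a kinase known to mark cyclin D1 for export and degradation, was measured at 7.59, 7.53 and 7.46 FPKM at 0 nM and at 5.88, 5.90 and 5.82 FPKM at 100 nM. The 3 treated values lay close together below the untreated ones, with a log2(FPKM + 1) difference of -0.31 ± 0.03 (SE; limma adjusted p = 0.0045). Gsk3b lies on chromosome 16, where 22 of 24 tested neighbours within 2.5 Mb had a lower mean and 12 of 24 fell past the threshold. Cks1b, a cofactor in the removal of p27, went from 140 to 130 FPKM without overlap and missed the threshold (limma adjusted p = 0.0527), which it passed under 3 alternatives (0.0377 to 0.0452).

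Of 27 E2F target genes of DNA replication and nucleotide synthesis, 2 fell and 0 rose, with a median difference of -0.03. Among all tested genes, 2.46% fell and 1.69% rose, with a median difference of 0.01. Mcm4, a subunit of the replicative helicase, went from 62.4 ± 0.31 FPKM to 54.7 ± 0.99 FPKM (SD, n = 3 each; adjusted p by limma = 0.00817). Cdc45, which joins that helicase, went from 19.1 ± 1.04 FPKM to 16.1 ± 0.50 FPKM (SD, n = 3 each; adjusted p by limma = 0.0414). That call was lost without any 1 of the 6 libraries (limma adjusted p = 0.0685 to 0.123, and 0.0974 without replicate 3 at 100 nM). It was also lost with quantile scaling (0.0532). Both lie on chromosome 16, where 40 of 43 tested neighbours of Mcm4 and 51 of 56 of Cdc45 had a lower mean. The remaining 25 targets did not pass, and 11 of the 27 had a higher mean. Among these, Rrm2, a subunit of ribonucleotide reductase, was measured at 98.87, 96.32 and 95.30 FPKM at 0 nM and at 102.34, 104.17 and 104.72 FPKM at 100 nM, without overlap, and missed the threshold (limma adjusted p = 0.0587). Rrm2 was called higher with quantile scaling (0.0446), among genes of at least 5 FPKM (0.0455) and among protein-coding genes alone (0.0433).

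Among the transcription factors that act on cyclin D genes, 2 of 17 tested fell and 0 rose, against 2.46% and 1.69% of all tested genes. Egr1, an immediate early gene of mitogen signalling, was measured at 13.50, 14.25 and 13.44 FPKM at 0 nM and at 7.48, 7.20 and 6.64 FPKM at 100 nM. Its mean fell by 48.2%, a log2(FPKM + 1) difference of -0.86 ± 0.05 (SE; limma adjusted p = 0.000991). Egr1 lies on chromosome 18, where 39 of 45 tested neighbours had a lower mean and a median difference of -0.09. Etv5, an Ets factor downstream of ERK, went from 16.3 ± 0.65 FPKM to 13.1 ± 0.38 FPKM (SD, n = 3 each; adjusted p by limma = 0.0132). The Etv5 call was lost without replicate 1 or 2 at 100 nM (limma adjusted p = 0.0557 and 0.0636). Of the words of Etv5 transcripts, 30.3% also occur in transcripts of other genes, so its level is uncertain. Around Etv5 on chromosome 16, 25 of 28 tested neighbours had a lower mean. Jun (53.8 and 47.0 FPKM, limma adjusted p = 0.0521) and Fosl1 (70.6 and 54.5 FPKM, limma adjusted p = 0.105) had lower means and did not pass. Jun was called lower under 6 alternatives (0.0345 to 0.044), and Fosl1 without replicate 2 at 0 nM (0.0412).

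No gene passed in the other 5 lists, by limma at an adjusted p under 0.05. Of 11 other E2F, DP and pocket protein genes, 10 had a lower mean, against 47.4% of all tested genes. An unadjusted p under 0.05 was found for 3 of the 11, against 20.7% of all. The atypical repressors E2f8 (24.8 and 23.2 FPKM, limma adjusted p = 0.0956) and E2f7 (5.71 and 5.31 FPKM, limma adjusted p = 0.25) had the widest differences there. All 5 tested S phase and mitotic cyclin and kinase genes had a higher mean, as did 6175 of the 11741 tested genes. These 5 were led by Ccna2 (92.6 and 96.2 FPKM, limma adjusted p = 0.319) and Ccnb2 (83.6 and 86.1 FPKM, limma adjusted p = 0.428), with 0 at an unadjusted p under 0.05. Cyclin A2, the product of Ccna2, takes over Cdk2 in S phase.

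In the 10 genes of the CDK-activating kinase, the Cdc25 phosphatases, the inhibitory kinases Wee1 and Pkmyt1 and the chaperones Cdc37 and Hsp90ab1, 1 had an unadjusted p under 0.05. Among all tested genes the share was 20.7%. Cdc25a, the phosphatase that removes inhibitory phosphates from Cdk2, stood at 6.51 and 7.08 FPKM (limma adjusted p = 0.214), and its relative Cdc25b at 29.4 and 28.5 FPKM (limma adjusted p = 0.586). The DREAM complex represses cell cycle genes in resting cells, and the list for DREAM and MuvB also holds Mybl2 and Foxm1. Mybl2 is among the E2F targets too. Of the 7 genes of that list, 1 had an unadjusted p under 0.05, against 20.7% of all tested genes. Lin9 (2.92 and 2.47 FPKM, limma adjusted p = 0.114) and Lin37 (7.33 and 6.97 FPKM, limma adjusted p = 0.725) had the widest differences there. Of 9 proliferation markers, 2 had an unadjusted p under 0.05, against 20.7% of all tested genes. The mitotic kinase gene Bub1 stood at 34.4 and 31.7 FPKM (limma adjusted p = 0.121) and Mki67, which encodes Ki-67, at 54.4 and 51.6 FPKM (limma adjusted p = 0.0859).

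The genes with the pattern most like that of Ccne1 over the 6 libraries, by Pearson r of log2(FPKM + 1), were Adnp2 (r = 0.99), Kbtbd2 (r = 0.99) and Fam162a (r = 0.99). Adnp2 lies on chromosome 18 and went from 11.4 to 9.78 FPKM. Kbtbd2 lies on chromosome 6 and went from 13.5 to 12.2 FPKM, and Fam162a lies on chromosome 16 and went from 119 to 95.8 FPKM. The 6 points include both groups, so r also holds the difference between them, and 316 of 10222 genes searched (3.09%) had an r over 0.9.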

How the data were processed

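Poly(A) RNA was sequenced from 4T1 cells in 3 libraries per group. The deposited values are FPKM per gene, which the authors made with fastp, HISAT2 and StringTie, per the submitters' processing notes. These name both GRCh38 and mm10, and their roles are not given. Identifiers are mouse: 28350 of 28418 matched GENCODE M21 (GRCm38), which gave the symbols, and 25640 had the same start and end. Depth is not in the files: 25.8% to 28.4% of low values per library came within 0.1 of a whole multiple of 1 read, so reads were not recovered and no count model was used. No cut-off for detection or interval from counting error can be given, and genes of low FPKM rest on fewer fragments.

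The 11741 genes whose mean reached 1 FPKM were tested on log2(FPKM + 1) with limma 3.58.1 in R 4.3.3, trend on, and adjusted by Benjamini-Hochberg. Fold changes on that scale understate those of low genes. Ratios were tested by exact permutation in SciPy 1.17.1. The script was first tested on simulated data of 11741 genes for the comparison of 100 nM with 0 nM. Named were all 10 members, each listed gene that passed, the 2 widest differences of each list where none did, and the 3 genes most like each member that passed. The members and lists were chosen with earlier results of these data known. The windows of neighbours, the motifs, the promoters and any other gene named with values were chosen after values were seen. Promoter sequences are from RefSeq (GRCm38.p6). Alternatives changed scaling, pseudocount, filter, gene set, variance model, replicate block and each library in turn.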

Additional observations from a re-analysis of the deposited data

How the results depend on the processing

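Over 16 alternatives, the Ccne1 difference kept its sign (-0.46 to -0.36) and lost its call in 7, with adjusted p from 0.0147 to 0.106. The count of members that changed was 1, and 0 with no filter on low values; it was 0 to 1 when 1 library was left out, with 0 for every library but replicate 3 at 100 nM. The count of changed genes was 487, and it was 204 with no filter, 294 with no trend and 122 to 290 with 1 library left out. It was higher in other settings, with 593 among genes of at least 5 FPKM and at most 653, among protein-coding genes alone. The number of members called was 1 under each of the other settings of scaling, pseudocount, filter and gene set. Cdkn1b lost its call in 7 of 16, also with no filter (0.0513), Cdc45 in 10 of 16, Etv5 in 3, Gsk3b and Mcm4 in 1 and Egr1 in 0. With 1 library left out, signs turned for Ccnd3 (-0.0323 to 0.0041), for E2f1 (-0.0408 to 0.035) and for the log2 ratio of Cdk4 to Cdk2 (-0.0053 to 0.0313), where replicate 2 at 0 nM, replicate 3 at 0 nM and replicate 2 at 100 nM decided, in that order. The cause of these changes was not tested, beyond the fewer samples or other genes each setting uses. The depth of the libraries is unknown, which limits the reading of Rb1 and Ccne1 most among the members, as the lowest in level.

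With the replicate number as a block, 58 genes changed (11 higher and 47 lower) and 0 members did, with an adjusted p of 0.106 for Ccne1 and 0.109 for Cdkn1b. Libraries of the same number did not deviate together (correlations of -0.03, -0.05 and 0.0065), so the numbers were not taken to pair the libraries.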
